A study of Mus musculus with 4 samples.

Results

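The direct p53 target genes Cdkn1a, Mdm2, Ccng1, Trp53inp1, Zmat3, Phlda3, Sesn1, Eda2r, Aen and Btg2 were examined in lungs of mice bearing 4T1 metastases. They were taken by gene symbol, with earlier results of these data known, and are 10 of the 56748 genes in the count table. Each symbol matched 1 row. Bulk RNA sequencing of messenger RNA was available for 2 saline and 2 ADC/cmLumiOpto samples. The methods of the study describe female BALB/cJ mice, 7 weeks of age, that received 2000000 cells of 4T1-FLuc, a luciferase-expressing mouse triple-negative breast cancer (TNBC) line, by tail vein. All mice of both groups therefore carried the same tumor line. The control is called saline in the sample names and PBS control in the treatment label. The treated mice received an antibody-drug conjugate (ADC) of an anti-CD276 antibody with the microtubule inhibitor mertansine (DM1). They also received cmLumiOpto, a gene therapy delivered in antibody-tagged exosomes carrying an adeno-associated vector, whose light-gated channel depolarizes mitochondria when the luminescent substrate ViviRen is given. The dose of ADC is 8 mg/kg in the methods and 16 mg/kg in the sample labels, which also give the treatment as "cmLumi-Olap", and the meaning of "Olap" is not given there. The series description gives 3 weeks of treatment. The labels describe tumor cells harvested from lung, whereas the methods describe dissociated lung tissue. Each group of the study had 4 samples by the methods, and 2 per group were analyzed here.

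The transcription factor p53 is stabilized by DNA damage and other stress and then binds response elements near its target genes. Its direct targets arrest the cell cycle, repair DNA, restrain growth signaling, trigger apoptosis and, through Mdm2, destroy p53 itself. Transcript levels of these targets are widely used as a readout of p53 activity. 4T1 is known as a line without functional p53, while the cells of the host lung carry the intact gene. Transcripts of tumor and host cells were counted together and cannot be told apart here.

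The promoter sequences show where the canonical binding motif lies in these genes. The RefSeq promoter table (build GRCm38.p6, 250 bases before to 50 bases after each annotated start) held 11 promoters of 8 of the genes. Trp53inp1 and Zmat3 had no entry. The p53 half-site consensus is 10 bases long and is its own reverse complement, so a search on either strand finds the same sites. An exact match was present in 6 of the 11 promoters, and in 8.36% of all 32851 promoters of the same length. By gene, 5 of the 8 had a match (Cdkn1a, Mdm2, Ccng1, Sesn1 and Aen), beside 9.55% of the 27025 gene symbols. The 2 promoters of Aen overlap and hold the same site. The second promoter of Cdkn1a and the first of Sesn1 had no match. The first promoter of Cdkn1a (chr17:29090729-29091028) held 2 matches, starting 73 and 51 bases upstream of its own start. The second promoter of Cdkn1a is a separate window, chr17:29093519-29093818. The single matches of Mdm2 and Ccng1 began 186 and 185 bases upstream. No exact match was in the window of Btg2, the gene with the largest difference between the groups, nor in those of Phlda3 and Eda2r. A match is a description of the letters, and its absence here says nothing of sites elsewhere in the gene. The 4 promoters below show the matches in capitals for the inhibitor of cyclin-dependent kinases, for the gene that feeds back on p53, for the gene with the highest level per length and for the gene with the most even level, and that of Btg2 is shown for comparison.
Cdkn1a, chr17:29090729-29091028, plus strand: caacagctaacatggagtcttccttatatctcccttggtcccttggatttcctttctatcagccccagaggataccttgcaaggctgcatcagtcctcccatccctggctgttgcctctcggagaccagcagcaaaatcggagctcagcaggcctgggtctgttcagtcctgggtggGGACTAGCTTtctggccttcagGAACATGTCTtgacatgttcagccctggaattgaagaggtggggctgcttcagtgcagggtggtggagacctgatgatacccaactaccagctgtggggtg
Mdm2, chr10:117710709-117711008, minus strand: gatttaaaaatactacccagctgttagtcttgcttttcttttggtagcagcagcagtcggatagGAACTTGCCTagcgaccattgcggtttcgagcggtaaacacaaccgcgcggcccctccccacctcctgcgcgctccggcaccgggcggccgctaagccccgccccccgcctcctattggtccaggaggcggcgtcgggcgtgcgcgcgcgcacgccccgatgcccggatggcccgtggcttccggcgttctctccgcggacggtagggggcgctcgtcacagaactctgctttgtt
Ccng1, chr11:40755237-40755536, minus strand: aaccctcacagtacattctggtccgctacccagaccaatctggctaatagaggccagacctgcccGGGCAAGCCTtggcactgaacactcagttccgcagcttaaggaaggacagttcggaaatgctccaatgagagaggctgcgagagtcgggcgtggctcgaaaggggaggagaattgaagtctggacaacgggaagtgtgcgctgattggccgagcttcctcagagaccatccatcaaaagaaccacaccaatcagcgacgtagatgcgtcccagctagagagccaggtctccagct
Aen, chr7:78895808-78896107, plus strand: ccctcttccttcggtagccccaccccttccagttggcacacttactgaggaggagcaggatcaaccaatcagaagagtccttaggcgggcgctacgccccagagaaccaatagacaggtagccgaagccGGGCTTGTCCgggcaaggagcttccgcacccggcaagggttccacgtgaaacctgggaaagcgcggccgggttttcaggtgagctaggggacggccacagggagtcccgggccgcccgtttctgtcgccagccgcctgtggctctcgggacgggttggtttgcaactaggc
Btg2, chr1:134079106-134079405, minus strand: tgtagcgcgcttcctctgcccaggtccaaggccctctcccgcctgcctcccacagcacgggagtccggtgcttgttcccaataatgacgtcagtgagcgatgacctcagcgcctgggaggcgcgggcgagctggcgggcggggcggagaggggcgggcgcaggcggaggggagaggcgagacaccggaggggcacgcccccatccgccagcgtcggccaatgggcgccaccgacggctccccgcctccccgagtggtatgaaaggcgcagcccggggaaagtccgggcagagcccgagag

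The libraries held 15263375 to 19675436 counts each. The floor of 3 counts corresponded to between 0.146 and 0.202 CPM (counts scaled to a common library size with TMM factors), for counting error only. Markers of lung and tumor cells were present together. The 6 genes Epcam, Krt8, Krt18, Krt14, Krt19 and Cdh1, keratin and adhesion genes of 4T1 and also of lung epithelium, were detected in all 4 samples, and Krt5 was at 0 in 3 of them. The 7 surfactant and alveolar type 2 genes were detected in all samples, with a summed level of 331 to 1570 CPM in saline and 4870 to 5670 CPM in ADC/cmLumiOpto, so samples labelled as tumor cells held alveolar RNA. The 6 neutrophil genes summed to 464 and 1120 CPM in the saline samples and to 1140 and 7850 CPM in ADC/cmLumiOpto replicates 1 and 2. ADC/cmLumiOpto replicate 2 therefore stood apart for neutrophil transcripts, and results that rest on it are given with and without it. The mitochondrial share of counts was 1.13% and 1.17% in saline and 2.09% and 1.84% in ADC/cmLumiOpto. Across genes, which are not independent replicates, the log2 fold change had a Spearman correlation of -0.34 with exon length. Values with this trend removed are therefore also given for several genes and lists. The labels give no animal, batch or date. The p-values therefore measure the spread between these samples only.

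The question for each gene was whether its transcript level differed between ADC/cmLumiOpto and saline. With edgeR's quasi-likelihood test and Benjamini-Hochberg adjustment over 15320 tested genes, 0 of the 10 p53 targets had an adjusted p under 0.05, against a background of 0% of all tested genes. At an unadjusted p under 0.05, 1 of the 10 was higher, Btg2, and 0 were lower, against 11% and 12.2% of all tested genes. At an adjusted p under 0.05, DESeq2 called 1 of the 10, Btg2 (8.69% of all tested genes), the edgeR exact test called 0 (7.64%), and the quasi-likelihood test without a filter on low counts called 1, again Btg2 (8.84%). All 10 genes passed the filter on low counts, but DESeq2 gave no adjusted p for Eda2r. The median log2 fold change of the 10 was 0.18, beside 0.03 for all tested genes, with 7 genes above 0 and 3 below, beside 52% of all tested genes above 0. The median was -0.01 without ADC/cmLumiOpto replicate 2. Without that library 0 of the 10 passed the unadjusted threshold, and without ADC/cmLumiOpto replicate 1 there were 3 (Btg2, Cdkn1a and Trp53inp1). For 7 of the 10 genes, the 2 samples of at least 1 group differed by a larger ratio than the group means did, and Sesn1, Aen and Btg2 were the exceptions.

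**Figure D1:**
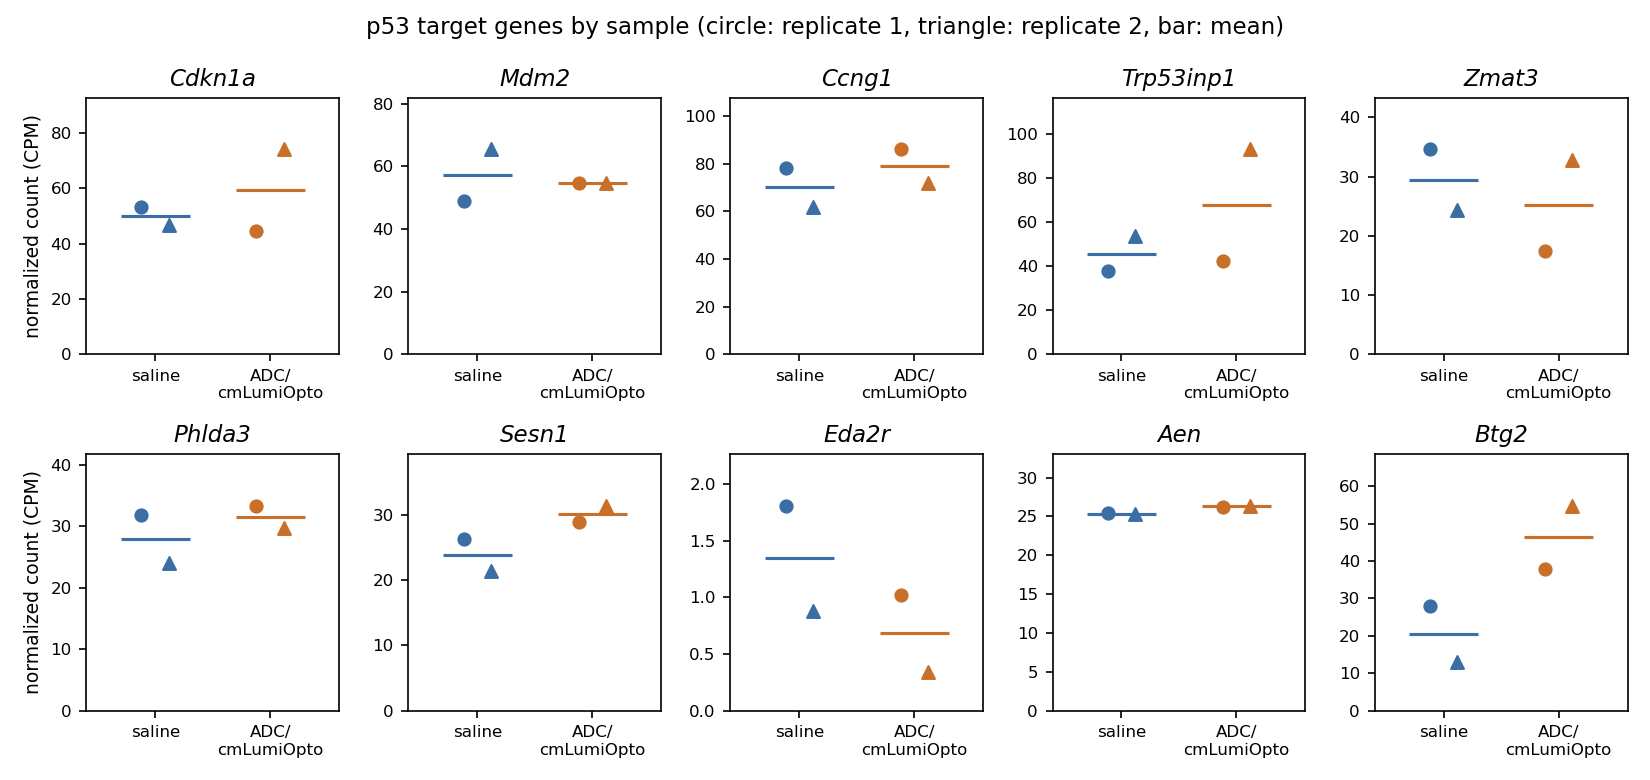
Normalized counts (CPM, linear axes from 0, a different scale for each gene) of the 10 p53 target genes in the saline samples (blue) and the ADC/cmLumiOpto samples (orange), with circles for replicate 1, triangles for replicate 2 and bars for group means. The groups do not overlap for Sesn1, Aen and Btg2, and for Cdkn1a, Trp53inp1 and Zmat3 the ADC/cmLumiOpto samples lie far apart.

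Cell cycle control is represented by Cdkn1a, Btg2 and Ccng1. Cdkn1a (ENSMUSG00000023067, chr17:29309950-29319701 in the positions of the table, build mm39 by the submitters' processing notes) encodes p21, the cyclin-dependent kinase inhibitor through which p53 arrests cells. In saline replicates 1 and 2 it was at 53.3 and 46.8 CPM (852 and 695 counts), and in ADC/cmLumiOpto replicates 1 and 2 at 44.5 and 74.2 CPM (785 and 1521 counts). The lowest and the highest level were thus both in treated samples, and the groups overlapped. On the log2 scale ADC/cmLumiOpto was higher by 0.25 (standard error 0.26, 95% interval -0.38 to 0.87), with an adjusted p of 0.597 in edgeR. It was -0.17 without ADC/cmLumiOpto replicate 2 and 0.57 without replicate 1, so its sign followed a single library. The interval reaches from a 0.77-fold to a 1.83-fold level of p21 transcript.

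Btg2 (ENSMUSG00000020423, chr1:134002908-134006858) encodes an antiproliferative partner of the CCR4-NOT deadenylase and is also known as an immediate early gene. Its counts were 446 and 194 in saline and 667 and 1126 after treatment. In CPM these were 27.9 and 13.1 against 37.8 and 54.9, with both treated samples above both saline samples. The saline samples themselves differed 2.13-fold. The group means were 20.5 ± 10.5 CPM (SD, n = 2) and 46.4 ± 12.1 CPM (SD, n = 2), a 2.26-fold difference and a log2 fold change of 1.18 (standard error 0.37, 95% interval 0.28 to 2.07). The unadjusted p was 0.0178 and the adjusted p 0.148 in edgeR's quasi-likelihood test, with adjusted p values from 3.58e-05 to 0.478 over the alternatives. The log2 difference of Btg2 stayed above 0 with any sample left out, between 0.74 (without saline replicate 2) and 1.81 (without saline replicate 1, adjusted p = 0.0417 in edgeR). Of 7 other immediate early genes, chosen after the value of Btg2 was seen, the summed level was 499 to 610 CPM in saline and 449 to 576 CPM in ADC/cmLumiOpto. Among them Atf3 had a log2 fold change of 1.07, Fosb of -1.40 and Egr1 of -0.80, so they did not share 1 direction.

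Ccng1 (ENSMUSG00000020326, chr11:40639379-40646138) encodes cyclin G1, which recruits phosphatase PP2A to Mdm2. It was the member with the highest level per length. Its counts were 1254 and 916 in saline and 1520 and 1478 in ADC/cmLumiOpto, or 78.4 and 61.7 against 86.1 and 72.1 CPM. The groups overlapped, with a log2 fold change of 0.17 (standard error 0.19, 95% interval -0.29 to 0.64, adjusted p = 0.617 in edgeR).

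Mdm2 (ENSMUSG00000020184, chr10:117524780-117546663) encodes the ubiquitin ligase that marks p53 for degradation and closes the feedback loop. It had 782 and 972 counts in saline and 967 and 1120 in ADC/cmLumiOpto, or 48.9 and 65.5 against 54.8 and 54.6 CPM. Both treated samples lay between the saline samples. Its log2 fold change was -0.06 (standard error 0.19), with an adjusted p of 0.870 in edgeR. The 95% interval of -0.52 to 0.40 allows at most a 1.32-fold higher mean level.

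Apoptosis and its regulation are represented by Trp53inp1, Aen, Phlda3, Eda2r and Zmat3. Trp53inp1 (ENSMUSG00000028211, chr4:11156431-11174379) encodes a stress protein that increases the pro-apoptotic activity of p53 and takes part in autophagy. Its levels were 37.8 and 53.6 CPM in saline and 42.3 and 93.1 CPM in ADC/cmLumiOpto, from 604, 795, 747 and 1910 counts. Replicate 1 of the treated group lay between the saline samples and replicate 2 above both. The log2 fold change of 0.57 (standard error 0.38, 95% interval -0.33 to 1.47, adjusted p = 0.393 in edgeR) became -0.11 without ADC/cmLumiOpto replicate 2 and 1.03 without replicate 1.

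Aen (ENSMUSG00000030609, chr7:78545602-78560957), a nuclease that promotes apoptosis by cutting DNA, was the most even of the 10 genes. Levels of 25.4 and 25.3 CPM in saline stood against 26.2 and 26.4 CPM in ADC/cmLumiOpto, from 406, 376, 463 and 541 counts. The groups did not overlap, although their means differed only 1.04-fold. On the log2 scale the difference was 0.05 (standard error 0.18, 95% interval -0.38 to 0.48, adjusted p = 0.884 in edgeR).

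Phlda3 (ENSMUSG00000041801, chr1:135693857-135696874) encodes a small pleckstrin homology protein that restrains the survival kinase AKT. It was at 31.8 and 24.1 CPM in saline and 33.4 and 29.7 CPM in ADC/cmLumiOpto, from 508, 357, 589 and 610 counts, and the groups overlapped. The log2 fold change was 0.18 (95% interval -0.32 to 0.68, adjusted p = 0.636 in edgeR). It was -0.10 once the trend of the counts on gene length was removed.

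Eda2r (ENSMUSG00000034457, chrX:96377446-96420822), a receptor of the tumor necrosis factor family for ectodysplasin A2, was the rarest member. It had 29 and 13 counts in saline and 18 and 7 in ADC/cmLumiOpto, or 1.81 and 0.876 against 1.02 and 0.341 CPM. The groups overlapped, and the log2 fold change was -1.0 (standard error 0.73, 95% interval -2.76 to 0.76, adjusted p = 0.444 in edgeR). It was -0.40 without ADC/cmLumiOpto replicate 2, -1.96 without replicate 1 and -0.39 without saline replicate 1. From these few reads, with 2 samples per group, the interval spans from a 0.148-fold to a 1.7-fold level.

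Zmat3 (ENSMUSG00000027663, chr3:32388941-32420163) encodes an RNA-binding zinc finger protein that regulates splicing and mRNA stability. It was at 34.6 and 24.3 CPM in saline and 17.5 and 32.8 CPM in ADC/cmLumiOpto, from 554, 360, 309 and 673 counts. The lowest sample was treated replicate 1, while replicate 2 lay between the saline samples. With all samples it was -0.23 on the log2 scale (standard error 0.34), with an adjusted p of 0.715 in edgeR. It was 0.16 without ADC/cmLumiOpto replicate 1, 0.04 without saline replicate 1 and 0.07 with the length trend removed.

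Growth restraint is represented by Sesn1 (ENSMUSG00000038332, chr10:41685931-41784420), a sestrin that inhibits the growth kinase complex mTORC1. It was at 26.4 and 21.5 CPM in saline and 29.0 and 31.5 CPM in ADC/cmLumiOpto, from 422, 319, 511 and 645 counts. Both treated samples lay above both saline samples. Its log2 difference was 0.34 (standard error 0.20, 95% interval -0.14 to 0.81, adjusted p = 0.341 in edgeR), and leaving out single samples gave 0.20 to 0.48. With Aen and Btg2, this made 3 of 10 genes whose groups did not overlap upward and 0 downward, against 28.1% and 28.8% of all tested genes.

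**Figure D2:**
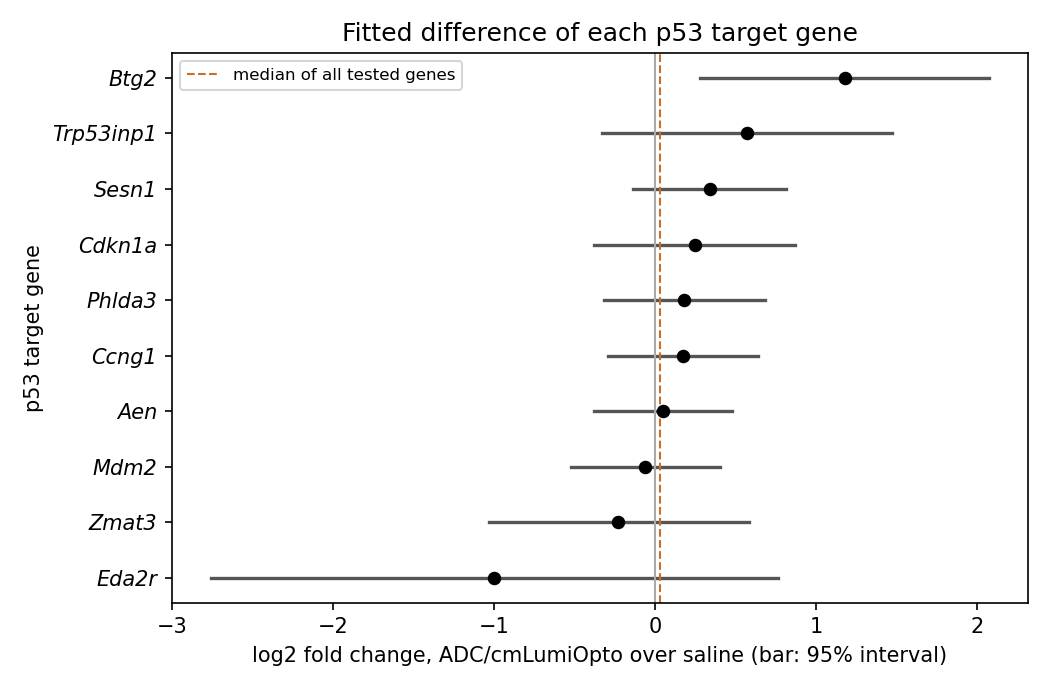
Log2 fold change of each p53 target gene, ADC/cmLumiOpto over saline, from edgeR (points) with its 95% interval (bars), a grey line at 0 and a dashed line at the median of all tested genes, 0.03. The interval of Btg2, 0.28 to 2.07, lies above 0, and the other 9 intervals include 0.

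The 10 genes did not move together across the 4 samples. Of the 10, 5 had their highest level in ADC/cmLumiOpto replicate 2 and 5 their lowest in saline replicate 2. Such counts were not made over all tested genes. Saline replicates 2 and 1 also differed in summed markers of alveolar type 2 cells (331 and 1570 CPM) and airway (81 and 1150 CPM). For the tumor and epithelial list replicate 2 was the higher, at 3020 and 2640 CPM. The part of these differences in the counts was not tested. Relative to the mean log2 CPM of the saline samples, ADC/cmLumiOpto replicate 1 had a median of 0 over the genes with 5 above 0, and replicate 2 a median of 0.14 with 8 above 0. The saline replicates differed as much from each other, with medians of 0.16 and -0.16. The genes highest in ADC/cmLumiOpto replicate 2 included Btg2, Trp53inp1 and Cdkn1a, at 1.52, 1.05 and 0.57 on this scale. In the same sample all 6 neutrophil marker genes were higher than in the other 3 samples, and their part in these levels was not tested. Eda2r was lowest in that sample, at -1.6.

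**Figure D3:**
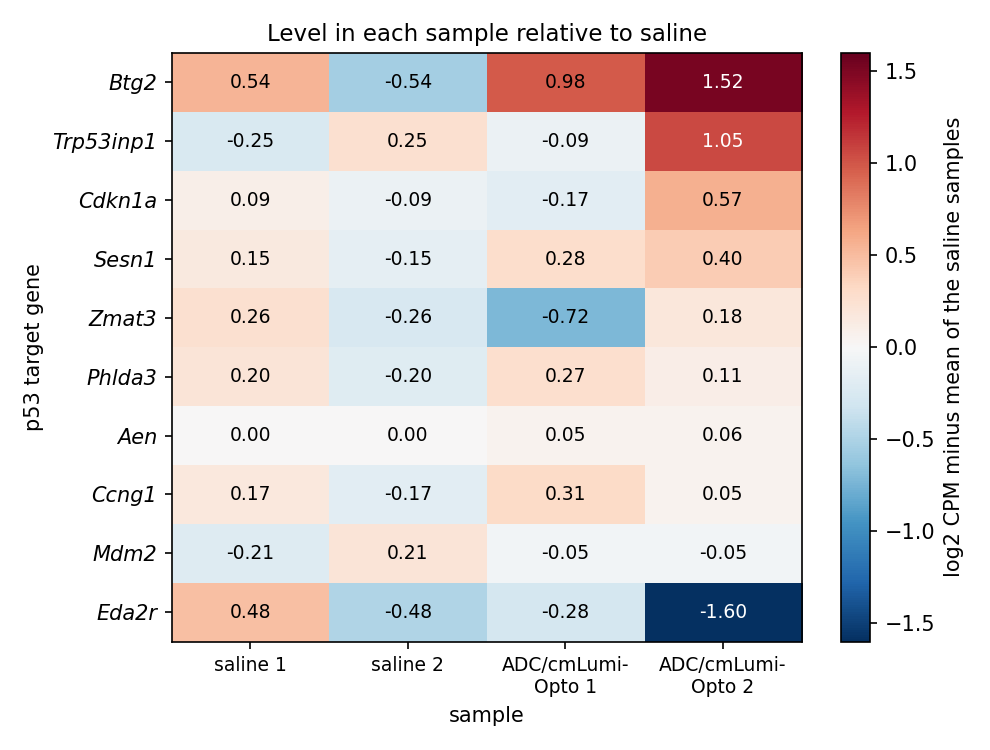
Level of each p53 target gene (rows) in each sample (columns) as log2 CPM minus the mean of the saline samples, with red above and blue below that mean and the value in each cell. ADC/cmLumiOpto replicate 2 holds the largest values of both signs, 1.52 for Btg2 and -1.6 for Eda2r, and replicate 1 ranges from -0.72 for Zmat3 to 0.98 for Btg2.

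Levels of different genes were compared per kilobase of exon length, as CPM per kb. In saline, Ccng1 (17.6 and 22.3 in the 2 samples) and Phlda3 (15.5 and 20.4) were highest and their ranges overlapped. Cdkn1a followed at 14.1 ± 1.28 (SD, n = 2) and Mdm2 at 11.3 ± 2.31, each apart from the gene above it. Mdm2, Btg2, Trp53inp1 and Sesn1 formed a run in which each overlapped the next, from 11.3 down to 6.01 CPM per kb. Aen at 4.37, Zmat3 at 2.58 and Eda2r at 0.228 CPM per kb each lay apart from its neighbors. In ADC/cmLumiOpto the order was the same except for Btg2, which stood between Phlda3 and Cdkn1a at 16.9 ± 4.41 CPM per kb (SD, n = 2) and overlapped both.

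Upstream of these targets, p53 itself and 18 of its regulators were examined: the sensor and effector kinases of DNA damage, coactivators, ubiquitin ligases and the p53 relatives. Trp53 (ENSMUSG00000059552, chr11:69471185-69482699) was at 47.4 ± 2.93 CPM (SD, n = 2) in saline and 36.4 ± 2.89 CPM (SD, n = 2) in ADC/cmLumiOpto, from 792, 673, 606 and 788 counts. Neither treated sample reached a saline sample, and the log2 fold change was -0.38 (standard error 0.17, 95% interval -0.78 to 0.02, adjusted p = 0.229 in edgeR), between -0.47 and -0.30 over all alternatives. The list holds genes that act for p53 and genes that act against it, so a shared direction does not measure p53 activity. All 18 tested genes of the list had log2 fold changes below 0, with a median of -0.31, beside 48% of all tested genes below 0. This count was 16 of 18 with library size or upper-quartile scaling, 15 of 17 with at least 10 counts required in every sample, and 16 of 18 with a median of -0.14 once the length trend was removed. It was 15 of 18 without saline replicate 2 or without ADC/cmLumiOpto replicate 2, and 17 of 18 without either replicate 1. At an adjusted p under 0.05 there were 0 genes, and at an unadjusted p under 0.05 there were 3 lower and 0 higher (16.7% lower, near the 12.2% of all tested genes). The 3 were the damage-response kinase Hipk2, which phosphorylates p53 (log2 fold change -1.07, adjusted p = 0.120 in edgeR), the checkpoint kinase Atr (-0.58) and the p53-binding repair factor Trp53bp1 (-0.52). With the length trend removed, Atr was at -0.11 and Trp53bp1 at -0.14 and neither passed the unadjusted threshold, while Hipk2 (-0.83) and Trp53 did. The part of the mitochondrial share and of gene length in the levels of this list was not tested. Hipk2 was at 36.5 ± 3.06 CPM in saline and 17.3 ± 5.05 CPM in ADC/cmLumiOpto (SD, n = 2 each). Its adjusted p was 0.120 in edgeR's quasi-likelihood test, 0.00975 in DESeq2 and 0.0128 in the edgeR exact test. Mdm4, the partner that blocks the activation domain of p53, was at 52.3 ± 16.2 and 44.3 ± 13.1 CPM (SD, n = 2 each), with overlapping groups. Trp73, the untested member, had 4 and 0 counts in saline and 9 and 10 in ADC/cmLumiOpto.

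A second list of 32 further p53 targets held 31 tested genes, with 17 above and 14 below 0 and a median log2 fold change of 0.04. At an unadjusted p under 0.05, 7 were higher and 2 lower (22.6% and 6.45%, beside 11% and 12.2% of all tested genes), and 0 passed the adjusted threshold in edgeR's quasi-likelihood test. With the length trend removed, 4 were higher (12.9%, beside 10.3% of all tested genes in that fit), and Bax, Bloc1s2 and Rprm no longer passed. The median was -0.08 without ADC/cmLumiOpto replicate 2. The 3 with the smallest p were Fas, Dcxr and Dram1. Fas, the death receptor, had 192 and 138 counts in saline and 478 and 604 in ADC/cmLumiOpto, and its mean was 10.7 ± 1.91 against 28.3 ± 1.67 CPM (SD, n = 2 each). Its log2 fold change was 1.41 (standard error 0.23, adjusted p = 0.116 in edgeR's quasi-likelihood test), between 1.18 and 1.59 over the alternatives. The adjusted p of Fas was 0.000125 in DESeq2 and 0.000353 in the edgeR exact test. Dram1, a lysosomal regulator of autophagy, was at 29.8 ± 11 against 70.5 ± 1.26 CPM (SD, n = 2 each), or 1.24 on the log2 scale. The adjusted p of Dram1 was 0.116 in edgeR's quasi-likelihood test, 0.00149 in DESeq2 and 0.00339 in the edgeR exact test. Dcxr, a carbonyl reductase, had a log2 fold change of 1.14, and of 0.86 with the length trend removed. For Dcxr the adjusted p was 0.116 in edgeR's quasi-likelihood test, 0.00325 in DESeq2 and 0.00674 in the edgeR exact test. At an adjusted p under 0.05, DESeq2 and the exact test called 8.69% and 7.64% of all tested genes.

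In the same list of further targets, Bax, the pore-forming effector of apoptosis, had 625 and 608 counts in saline and 1058 and 1147 in ADC/cmLumiOpto. Its log2 fold change was 0.53 (standard error 0.16, unadjusted p = 0.0131, adjusted p = 0.139 in edgeR's quasi-likelihood test). It was 0.26 with the length trend removed. Bbc3, which encodes PUMA, was at 7.64 ± 0.695 and 12.7 ± 4.24 CPM (SD, n = 2 each), or 0.74 on the log2 scale, with an adjusted p of 0.233 in edgeR. It was 0.35 without ADC/cmLumiOpto replicate 2, 1.04 without replicate 1 and 0.53 with the length trend removed. Gadd45a, a growth arrest gene, and Sesn2, the second sestrin, had log2 fold changes of -0.06 and 0.08 with overlapping groups. With the length trend removed Gadd45a was at -0.33.

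Downstream of p21, a list of 12 cell cycle genes that the DREAM repressor complex is known to silence was examined. At an unadjusted p under 0.05, 6 of the 12 were lower (50%) and 0 higher, beside 12.2% and 11% of all tested genes. In edgeR's quasi-likelihood test 0 passed the adjusted threshold. Foxm1, Ccnb1 and Kif23 had the smallest p, with log2 fold changes of -0.98, -0.65 and -0.63. With the length trend removed Kif23 was at -0.42, and 8 of the 12 genes were lower at the unadjusted threshold (66.7%). In that fit the share of all tested genes was 9.57%, and the list median was -0.55. Without this correction the list median was -0.50, with 11 of 12 genes below 0 beside 48% of all tested genes. The log2 fold change of Cdkn1a was 0.25 with overlapping groups. Whether p21 or DREAM had a part in the levels of the list was not tested. Which cells carried the transcripts of Cdkn1a or of the list was not measured.

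**Figure D4:**
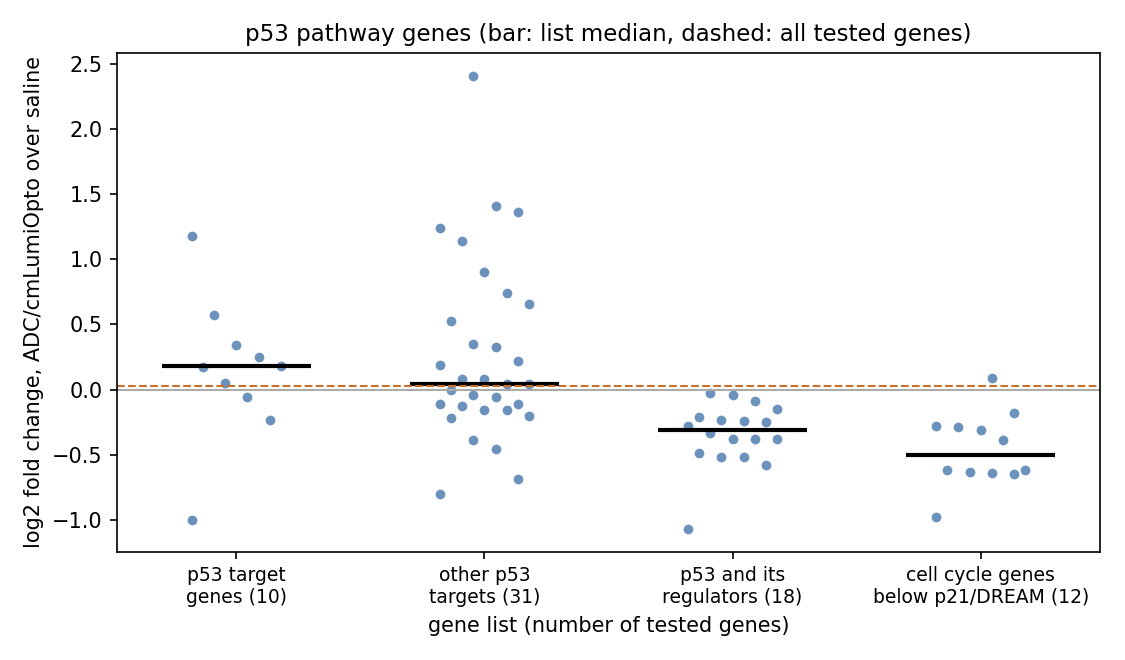
Log2 fold change, ADC/cmLumiOpto over saline, of each tested gene (points) in the 10 p53 targets, the further p53 targets, p53 with its regulators and the cell cycle genes below p21 and DREAM, with list medians (black bars: 0.18, 0.04, -0.31 and -0.50) and the median of all tested genes (dashed, 0.03). All 18 points of p53 and its regulators lie below 0 (16 of 18 with the length trend removed and 15 of 18 without ADC/cmLumiOpto replicate 2), and the 10 targets spread around the dashed line from -1.0 to 1.18.

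Markers of several cell types differed with treatment beside these values, and in bulk samples fewer cells of a type and less RNA per cell cannot be told apart. At an unadjusted p under 0.05, 7 of 7 alveolar type 2 genes, 4 of 6 alveolar type 1 genes, 5 of 5 airway genes, 3 of 7 endothelial genes, 6 of 6 neutrophil genes, 2 of 6 tested T and NK cell genes and 3 of 5 erythroid genes were higher, beside 11% of all tested genes. The 6 neutrophil genes summed to 464 and 1120 CPM in saline, and to 1140 and 7850 CPM in ADC/cmLumiOpto replicates 1 and 2. Their rise thus lay mainly in replicate 2. The groups did not overlap upward for 3 of the 6, beside 28.1% of all tested genes. Of the fibroblast genes 7 of 7 were lower at the same threshold, beside 12.2% of all tested genes. The macrophage and the tumor and epithelial lists were near that share, with 1 of 6 tested genes lower in each. The summed levels were 3540 to 5150 CPM in saline and 1460 to 1770 CPM in ADC/cmLumiOpto for the fibroblast list, and 2640 to 3020 against 2480 to 2570 CPM for the tumor and epithelial list. The airway list summed to 81 and 1150 CPM in saline and to 2960 to 6200 CPM in ADC/cmLumiOpto. For the other lists the saline and ADC/cmLumiOpto ranges were 221 to 375 and 797 to 812 CPM for alveolar type 1 cells, 418 to 508 and 533 to 776 for endothelium, 16.6 to 44.9 and 40.0 to 94.0 for T and NK cells, 1310 to 1490 and 1320 to 1760 for macrophages, and 352 to 1110 and 1870 to 2070 for erythroid cells. Klrb1c was at 0 in saline replicate 2. The part of these shifts in the levels of Btg2, Fas, Dram1 or the regulators of p53 was not tested.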

How the data were processed

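The authors sequenced poly-A-selected RNA and deposited raw read counts per gene. HISAT2 and build mm39 are named in the submitters' processing notes, while the methods name GRCm38. The counting program, its annotation and its strand setting are not given in the sources used here, so overlapping antisense reads may be included. Gene positions are those of the deposited table, and promoter sequences are from RefSeq on GRCm38.p6. The 2 sets of coordinates were not mixed.

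Genes were filtered with filterByExpr (minimum count 10, minimum total 15), which left 15320 genes. Counts were scaled by TMM and fitted with glmQLFit and glmQLFTest (edgeR 4.0.16, limma 3.58.1, R 4.3.3) over 2 saline and 2 ADC/cmLumiOpto samples, with Benjamini-Hochberg adjustment over all tested genes and a threshold of 0.05. The prior count was 0.125. Standard errors were computed from the fold change and the F statistic. DESeq2 1.42.0, the edgeR exact test, other scalings and filters, a gene length correction, a replicate block and the leaving out of each sample were alternatives. The newer quasi-likelihood method was added after the data were seen. The scripts were tested on simulated data with large differences and the same spread for all genes, which does not measure the power in these data.

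The genes named are all 10 targets, Trp53, the 3 genes of each further list with the smallest p, and Mdm4, Bax, Bbc3, Gadd45a and Sesn2. The 10 targets and all lists were chosen with earlier results of these data known. With 2 samples against 2, an exact two-sided permutation test cannot go below p = 0.333, so none was used. The results of 1 marker list are not reported here.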

Additional observations from a re-analysis of the deposited data

How the results depend on the processing

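With 2 samples per group, small differences were not detectable, and the count of calls depended on the test. At an adjusted p under 0.05, edgeR's quasi-likelihood test called 0 genes (3553 at an unadjusted p under 0.05), DESeq2 1332, the edgeR exact test 1170, and the quasi-likelihood test without a filter 2259. Of the 10 targets these called 1 (Btg2), 0 and 1 (Btg2), of p53 and its regulators 1 each (Hipk2), of the further targets 5, 4 and 8, and of the genes below p21 2, 1 and 4. At an unadjusted p the fit without a filter called 2 of the 10 targets. The cause was not tested. A replicate block gave 607 calls in all, 0 of the 10 targets, 1 regulator, 4 further targets and 1 gene below p21, and 2 of the 10 targets at an unadjusted p. The replicate numbers in the labels only number the samples, and same-numbered samples deviated together with a correlation of 0.099, so the block is no evidence of pairing.

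With each sample left out in turn, adjusted calls ranged from 0 to 218 over all genes (218 without saline replicate 1), from 0 to 1 for the 10 targets and from 0 to 1 for the further targets. Unadjusted calls ranged from 1687 to 3654 over all genes, from 0 to 3 for the 10 targets, from 1 to 5 for the regulators, from 5 to 11 for the further targets and from 3 to 5 for the genes below p21. The lone sample of a group is there assumed to vary like the other group. Of 349 values of single genes under the alternatives, 305 kept their direction and side of the threshold, 27 passed it newly and 17 changed sign. Eda2r under DESeq2, which had no adjusted p, was counted among the 305. With upper-quartile scaling Mdm2 was at 0.02 and Gadd45a at 0.03 (log2 fold changes), and with the length trend removed Mdm2 was at 0.01, Zmat3 at 0.07, Phlda3 at -0.10 and Mdm4 at 0.13. Signs also changed with a sample left out, where values ranged from -0.17 to 0.57 for Cdkn1a, -0.27 to 0.17 for Mdm2, -0.11 to 1.03 for Trp53inp1, -0.75 to 0.16 for Zmat3, -0.01 to 0.38 for Phlda3, -0.58 to 0.12 for Mdm4, -0.24 to 0.10 for Gadd45a and -0.18 to 0.29 for Sesn2. Eda2r did not reach 10 counts in every sample and had no value under that filter.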
